A study of Mus musculus with 46 samples.

Results

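Cytosolic ribosomal proteins are the protein parts of the ribosomes that translate nuclear-encoded mRNAs. Their genes were chosen by mouse symbol, namely Rpl or Rps followed by a number, with or without the endings a, x, l and 1, together with *Rplp0*, *Rplp1*, *Rplp2* and *Rpsa*, and without pseudogenes. Of 16642 genes measured in both experiments, 80 met this choice, and they encode 45 proteins of the large subunit, 32 of the small subunit and 3 of the stalk. *Rpl23a* and *Rpl24* were measured in the ORX experiment alone, at group means of 0.449 to 0.755 CPM (the TMM-normalized count on the scale of counts per library of fixed size), changed in none of its comparisons by edgeR, and were left out of the counts over 80 genes.

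A ribosome joins a small subunit, which reads the mRNA, and a large subunit, which forms the peptide bonds, and the stalk on the large subunit recruits the elongation factors. The mRNAs of these proteins carry a run of pyrimidines at their very start, the terminal oligopyrimidine (TOP) tract, through which mTORC1 controls their translation. Striated muscle also makes *Rpl3l*, a paralog of *Rpl3* that can take its place in the large subunit.

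The data are RNA sequencing counts from muscles of C57BL6 mice, either wild type (WT) or knockout (KO) for *Actn3*, the gene of the fast-fiber protein α-actinin-3. In the ORX experiment, male mice aged 8 to 10 weeks were orchidectomized (ORX, 6 WT-ORX and 5 KO-ORX libraries) or had sham surgery (6 WT-sham and 6 KO-sham libraries), and the gastrocnemius was studied 12 weeks later. In the DHT experiment, female mice aged 4 to 5 weeks received a silastic implant with 10 mg of the androgen dihydrotestosterone (DHT, 6 WT-DHT and 6 KO-DHT libraries) or an empty one (5 WT-empty and 5 KO-empty libraries), and the spinalis was studied 6 weeks later. Each library came from a piece of whole muscle, so that fewer cells of a type and less RNA per cell cannot be told apart. The total counts were between 26653932 and 55369921 per library of the ORX experiment and between 34812381 and 53899279 per library of the DHT experiment. Every KO-sham library, with at most 37486666 counts, was smaller than every WT-sham library, with at least 43408015.

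The knockout target was measured first in every library, in CPM. In the gastrocnemius *Actn3* ran from 5977 to 7052 (median 6724) in WT-sham and from 7826 to 9617 (median 8964) in WT-ORX, whereas it ran from 35.8 to 54.7 (median 46.5) in KO-sham and was 34.3, 45.3, 49.6, 53.1 and 44.4 in KO-ORX. In the spinalis, *Actn3* was at 9641, 9812, 9946, 8592 and 10353 CPM in WT-empty and 67.5, 83.2, 78.4, 56.6 and 62.1 in KO-empty, and it ran from 6164 to 7703 (median 7276) in WT-DHT and from 61.4 to 77.5 (median 66.8) in KO-DHT. No KO library came near a WT library, and the log2 fold change of KO against WT was −7.18 in sham, −7.61 after ORX, −7.12 with empty implants and −6.71 with DHT. The labelled tissue was checked with 6 skeletal muscle markers, all of which were measured, and their summed level was between 135416 and 237863 CPM in every library, led by *Ttn*. The 4 fiber type myosins summed to between 40244.7 and 94968.7 CPM and were led by *Myh4*, the fast 2B myosin.

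The 80 genes held under 1% of all counts in every library. In percent of the counts, their share ran from 0.660 to 0.726 (median 0.701) in WT-sham, from 0.730 to 0.827 (median 0.778) in WT-ORX and from 0.509 to 0.702 (median 0.625) in KO-sham, and was 0.645, 0.709, 0.719, 0.660 and 0.708 in KO-ORX. In the spinalis it was 0.660, 0.668, 0.610, 0.603 and 0.557 percent in WT-empty and 0.547, 0.529, 0.571, 0.553 and 0.589 in KO-empty, and it ran from 0.483 to 0.598 (median 0.523) in WT-DHT and from 0.472 to 0.554 (median 0.498) in KO-DHT. Every WT-ORX library lay above every WT-sham and every KO-ORX library, while the groups of the other comparisons overlapped. The lowest ORX library was KO-sham replicate 1, in which the 10 most abundant genes took 40.4% of the counts, against 32.7 to 38.3% in the other libraries of that experiment. In the DHT experiment, WT-DHT replicate 5 had the fewest counts and the largest such share, 43.2%. Transcripts of the mitochondrial genome, which share each library's counts, made up medians of 14.5% in WT-sham, 12.1% in WT-ORX, 15.1% in KO-sham and 13.1% in KO-ORX, and of 6.07% in WT-empty, 9.36% in WT-DHT, 9.69% in KO-empty and 10.6% in KO-DHT, with overlap in every comparison.

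Single members differed widely in level. Their mean level had a median of 48.5 CPM in the gastrocnemius and 37.6 CPM in the spinalis, with 26 and 18 members above 100 CPM and 4 members under 1 CPM in each muscle. Per kilobase of coding sequence, *Rpl41* (ENSMUSG00000093674), whose protein is the shortest of the ribosome, stood highest at 1032 CPM per kilobase in the gastrocnemius and 749 in the spinalis, although it ranked 12 and 13 per kilobase of exon. *Rplp1*, *Rps14* and *Rplp0* were among the next highest on the coding scale in both muscles. At the other end stood *Rps10*, *Rpl28*, *Rpl36al* and *Rps6*, each at no more than 2.48 CPM per kilobase in the gastrocnemius and 1.99 in the spinalis. *Rps6* encodes the S6 protein that S6 kinase phosphorylates, and it was counted 34 to 116 times per library.

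These low values come with a limit. Ribosomal protein genes have many processed pseudogene copies in the mouse genome, and reads that match both may be split or dropped. Annotated copies named after members, 55 in the ORX table and 53 in the DHT table, held counts equal to 12.5 to 13.8% and 12.2 to 13.1% of those of the members. How reads with several matches were counted, and whether the strand was used, is not given in the sources used here, so levels compared between members are uncertain. Members that overlap a gene on the opposite strand, among them *Rps2*, *Rps10*, *Rps28* and *Rpl28*, are uncertain for this reason too.

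Members were tested within each whole table by edgeR's quasi-likelihood test, and q stands for the Benjamini-Hochberg adjusted p-value over all genes of a comparison. A gene passed at a q of at most 0.01 where 2 groups were compared, and of at most 0.05 in an interaction, which asks whether a treatment acted differently in WT and KO. The 4 KO against WT comparisons share no library. With library-size scaling in place of TMM, the median of all genes moved to as much as 0.12 on the log2 scale, in KO-ORX against KO-sham, so the medians of members are read relative to the median of all genes.

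In each comparison of KO with WT muscle, the median of the ribosomal protein genes lay below that of all genes by a small amount, and not every member shared this. Of the 80 members, 3 were lower and 0 higher in KO-sham than in WT-sham, where 2.82% of all genes were lower and 2.48% higher, so that the share in sham was near that of all genes. After ORX 13 members were lower and 0 higher in KO, against 2.73% and 1.07% of all genes. With empty implants the counts were 8 lower and 0 higher, against 2.5% and 1.75%. With DHT they were 11 lower and 1 higher, against 6.51% and 5.13%. At an unadjusted p under 0.05 there were 27, 36, 30 and 31 members in either direction, or 33.8, 45, 37.5 and 38.8%, against 23.3, 18.9, 23.4 and 29.6% of all genes. DESeq2 and limma-voom also called 0 members higher in sham, after ORX and with empty implants. The median log2 fold change of the members was −0.12 in sham, −0.16 after ORX, −0.14 with empty implants and −0.12 with DHT, where the median of all genes lay at −0.01, 0.01, 0.01 and 0.01. Of the 80 members, 40 lay below 0 in all the 4 comparisons, or 50% against 16.3% of all genes, and 1 lay above 0 in all of them, or 1.25% against 17.1%. With library-size scaling the median of members stayed below that of all genes in each of the 4 comparisons, at −0.11, −0.17, −0.15 and −0.13 relative to it.

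The number of members that passed depended on single libraries and on scaling more than the medians did. In sham it was 8 without KO-sham replicate 4 and 1 without WT-sham replicate 4. After ORX it was 8 without KO-ORX replicate 1 or 4 or WT-ORX replicate 3 or 4, and 7 with library-size scaling. With empty implants it was 1 without WT-empty replicate 2, 2 without WT-empty replicate 1 or 3, 3 without KO-empty replicate 2 or 4, 4 without KO-empty replicate 3, and 5 without KO-empty replicate 1 or WT-DHT replicate 3. It was also 1 there with library-size scaling, and 0 when only the groups compared were fitted. With DHT it was 5 without WT-DHT replicate 5 or KO-DHT replicate 2, 6 without WT-DHT replicate 6 or KO-DHT replicate 5 or 6, and 7 without WT-DHT replicate 3 or KO-DHT replicate 1, and library-size scaling left 1 higher and 1 lower. Without any single library, the medians of the 4 comparisons stayed between −0.18 and −0.09.

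**Figure D1:**
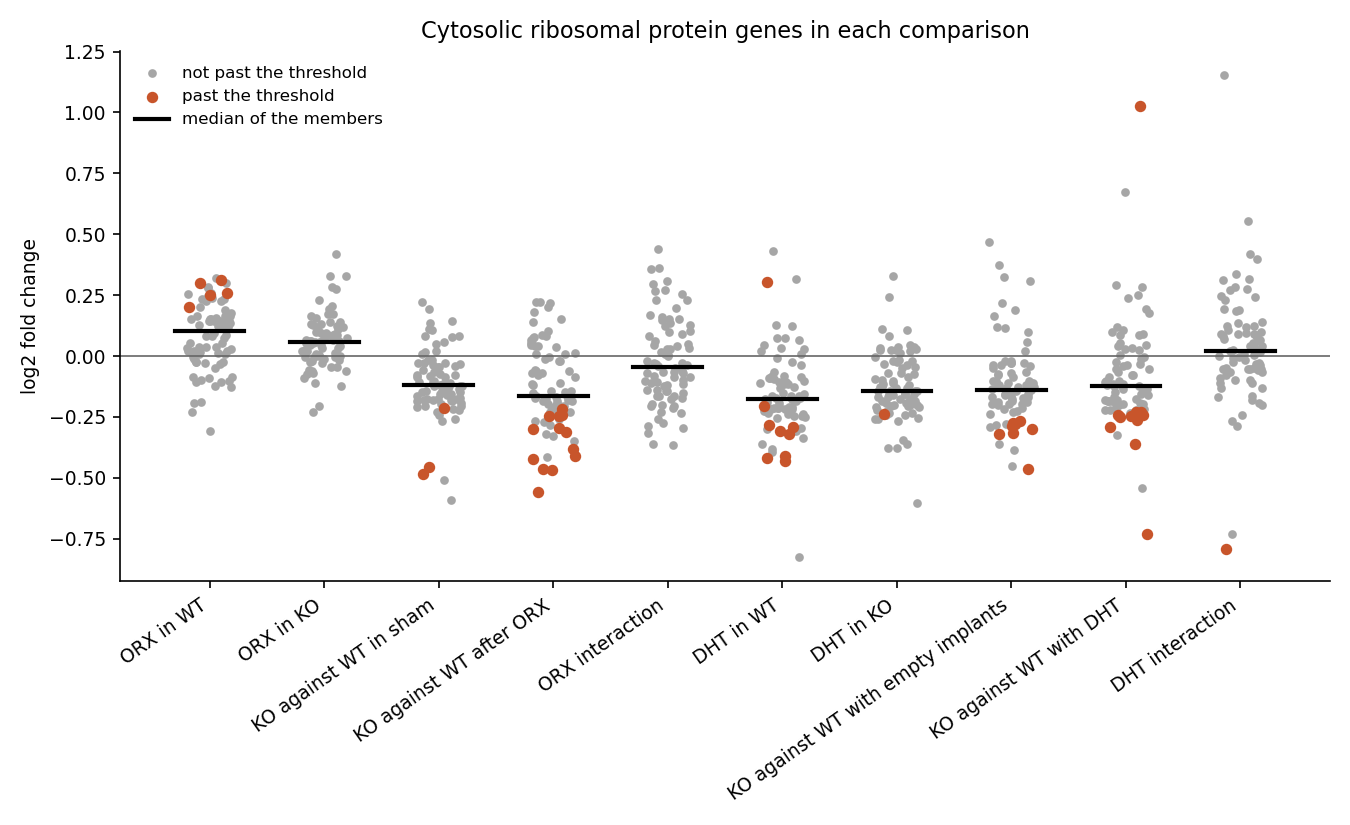
Log2 fold change (y axis) of the 80 cytosolic ribosomal protein genes in the 10 comparisons (x axis). Each point is a gene, orange where it passed the threshold, and the black bar is the median of the members, which lies between −0.12 and −0.16 in the 4 comparisons of KO against WT.

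Among the small-subunit members, *Rps20* (ENSMUSG00000028234) was lower in KO in all the 4 comparisons. This protein of the head of the small subunit ran from 135 to 184 (median 167) CPM in WT-sham, from 144 to 208 (median 153) in WT-ORX and from 103 to 131 (median 117) in KO-sham, and was at 109.6, 117, 128, 119 and 126 in KO-ORX. In the spinalis it was at 145, 139.8, 118, 107 and 116 CPM in WT-empty and 82.5, 87.3, 86.1, 99.6 and 98.2 in KO-empty, and it ran from 119 to 142 (median 141) in WT-DHT and from 73.3 to 86.9 (median 83.5) in KO-DHT. The KO and WT libraries did not overlap in any of the 4 comparisons. The log2 fold change with its standard error was −0.48 ± 0.09 in sham (edgeR q = 0.0004), −0.47 ± 0.09 after ORX (q = 0.0012), −0.47 ± 0.08 with empty implants (q = 0.00054) and −0.73 ± 0.07 with DHT (q = 7.7e-08). It passed in all the 4 comparisons with each library left out in turn, and it missed the threshold with empty implants when only those 2 groups were fitted. It passed for neither treatment, at log2 fold changes of 0.01 and 0.03 after ORX and 0.12 and −0.14 with DHT in WT and KO. Its interaction was 0.02 ± 0.12 with ORX (edgeR q = 0.98) and −0.27 ± 0.11 with DHT (q = 0.22).

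*Rps2* (ENSMUSG00000044533), a small-subunit protein near the mRNA entry channel, had the largest fold change of the members between KO-ORX and WT-ORX. It ran from 119 to 171 (median 139) CPM in WT-ORX and was at 96.2, 98.5, 112, 92.5 and 92.1 in KO-ORX, which did not overlap (−0.56 ± 0.08, edgeR q = 4.4e-05). With empty implants *Rps2* was at 169, 209.7, 167, 138 and 141 CPM in WT and 121, 116, 115, 112 and 139 in KO, where WT-empty replicate 4 fell below the highest KO-empty library and the difference missed the threshold (−0.45 ± 0.12, edgeR q = 0.015). In sham *Rps2* ran from 116 to 124 (median 117) CPM in WT and from 87.2 to 117 (median 98.1) in KO. With DHT it ran from 109.8 to 152 (median 114) CPM in WT and from 97.3 to 138 (median 119) in KO. The groups overlapped in both, and *Rps2* passed in neither. *Rpsa* (ENSMUSG00000032518), the small-subunit protein also known as the laminin receptor, ran from 196 to 221 (median 201) CPM in WT-sham, from 222 to 285 (median 231) in WT-ORX and from 162 to 211 (median 179) in KO-sham, and was at 179, 190.5, 191, 175 and 178 in KO-ORX. Its spinalis libraries held 223, 238, 217, 189.5 and 213 CPM in WT-empty and 173, 172, 185, 168 and 188 in KO-empty, and ran from 161 to 186 (median 174) in WT-DHT and from 144 to 162 (median 151) in KO-DHT. KO lay below WT with no overlap after ORX (−0.42 ± 0.07, edgeR q = 0.00012) and with empty implants (−0.29 ± 0.06, q = 0.0033), and the values overlapped in sham (−0.17 ± 0.06, q = 0.099). With empty implants *Rpsa* did not pass without WT-empty replicate 1, 2 or 3 or KO-empty replicate 2 or 4 (q up to 0.015). It did not pass there under library-size scaling or in a fit of those 2 groups alone either (q up to 0.042).

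Other small-subunit members were lower in KO in the DHT groups. With DHT, *Rps15a* ran from 86.1 to 99.9 (median 94.7) CPM in WT and from 66.5 to 83.9 (median 76.8) in KO (−0.29 ± 0.06, edgeR q = 0.0015), with no overlap. *Rps14*, of the platform of the small subunit, ran from 222 to 279 (median 258) CPM in WT-DHT and from 184 to 222 (median 199) in KO-DHT (−0.36 ± 0.07, edgeR q = 0.00076), again with no overlap. Both passed with each library left out in turn and missed the threshold under library-size scaling.

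Further small-subunit members that passed as lower in KO were named after their values were seen. Among them were *Rps15* (−0.41), *Rps9* (−0.30) and *Rps3a1* (−0.30) after ORX, *Rps3a1* (−0.32) with empty implants, and *Rps9* (−0.24), *Rps4x* (−0.25), *Rps3a1* (−0.26), *Rps24* (−0.24) and *Rps3* (−0.24) with DHT, by log2 fold change. Of these, *Rps15* after ORX was the one that passed under library-size scaling. Without 1 library, *Rps3a1* passed in 18 of 23 fits after ORX and in 14 of 22 with empty implants. With DHT, *Rps9* passed in 20 of 22 such fits, *Rps4x* in 15, *Rps3a1* in 14, *Rps24* in 9 and *Rps3* in 8. Of the 32 small-subunit members, 1 passed as lower in sham, 8 after ORX, 4 with empty implants and 8 with DHT, against 1, 4, 4 and 3 of the 45 large-subunit members. The median of the small-subunit members was −0.16 in sham, −0.19 after ORX, −0.15 with empty implants and −0.19 with DHT, and that of the large-subunit members −0.08, −0.11, −0.12 and −0.08. The difference between the subunits was not tested.

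Among large-subunit members, *Rpl8* and *Rpl4* were lower in KO most often. *Rpl8* (ENSMUSG00000003970), whose protein lies near the peptidyl transferase center, ran from 259.9 to 316 (median 288) CPM in WT-sham, from 279.6 to 303 (median 297) in WT-ORX and from 238 to 265 (median 244) in KO-sham, and was at 238, 237, 275, 245 and 249 in KO-ORX. Its spinalis levels were 285, 315, 278, 248 and 256 CPM in WT-empty and 222, 223, 229, 210.5 and 240.3 in KO-empty, and they ran from 217 to 262 (median 249) in WT-DHT and from 195 to 224 (median 206) in KO-DHT. The groups did not overlap after ORX and with empty implants, and they overlapped in sham and with DHT. The log2 fold change of *Rpl8* was −0.21 ± 0.05 in sham (edgeR q = 0.0028), −0.24 ± 0.05 after ORX (q = 0.0017), −0.30 ± 0.07 with empty implants (q = 0.0058) and −0.23 ± 0.06 with DHT (q = 0.0085). Under library-size scaling *Rpl8* passed in sham and in none of the other 3 comparisons. In sham it was lost without WT-sham replicate 4 or in a fit of those 2 groups alone. It passed in 15 of 22 fits without 1 library with empty implants and in 8 of 22 with DHT. *Rps20* and *Rpl8* were thus the 2 members that passed as lower in all the 4 genotype comparisons, as 0.703% of all genes did, and 8 members passed in at least 2 of them, as 3.43% of all genes did.

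*Rpl4* (ENSMUSG00000032399), which lines the peptide exit tunnel, ran from 495 to 542 (median 524) CPM in WT-sham, from 561 to 684 (median 588) in WT-ORX and from 411 to 498 (median 461) in KO-sham, and was at 440.4, 453, 485, 457 and 474 in KO-ORX. The spinalis libraries were at 462, 456, 421, 396 and 410.3 CPM in WT-empty and 352, 361, 356, 349 and 362 in KO-empty, and they ran from 363 to 401 (median 380.2) in WT-DHT and from 299 to 346 (median 320.2) in KO-DHT. KO lay below WT without overlap after ORX (−0.38 ± 0.05, edgeR q = 2.8e-05), with empty implants (−0.27 ± 0.05, q = 0.0024) and with DHT (−0.25 ± 0.05, q = 0.00076). In sham the groups of *Rpl4* overlapped (−0.18 ± 0.05, q = 0.021), and under library-size scaling only the difference after ORX passed. With empty implants *Rpl4* was also lost without WT-empty replicate 1 or 2 (q up to 0.011).

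Further large-subunit members passed in 1 or 2 comparisons. *Rpl29* (ENSMUSG00000048758), a small protein of the large subunit, ran from 51.3 to 70.1 (median 56.1) CPM in WT-ORX and was at 44.4, 44.4, 42.9, 41.4 and 40.8 in KO-ORX, with no overlap (−0.47 ± 0.08, edgeR q = 0.00017). *Rpl7* (ENSMUSG00000043716) was at 226, 262, 248, 214 and 214 CPM in WT-empty and 184, 185, 192, 181 and 189 in KO-empty, again with no overlap (−0.32 ± 0.07, edgeR q = 0.0035). It passed with DHT as well (−0.23 ± 0.06, edgeR q = 0.0098), where the libraries overlapped, and it missed the threshold under library-size scaling in both. With empty implants it was lost without WT-empty replicate 2 or 3, and with DHT in 17 of 22 fits without 1 library. *Rpl22* (ENSMUSG00000028936), an RNA-binding protein with a paralog, ran from 141 to 166 (median 147) CPM in WT-ORX and was at 119, 132, 135, 126 and 137 in KO-ORX, with no overlap (−0.22 ± 0.05, edgeR q = 0.0079), and missed the threshold under library-size scaling and in 9 of 23 fits without 1 library. *Rpl14*, named after its values were seen, was lower with empty implants (−0.28), and was lost under library-size scaling, with thinned counts, in a fit of those 2 groups alone and in 10 of 22 fits without 1 library.

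**Figure D2:**
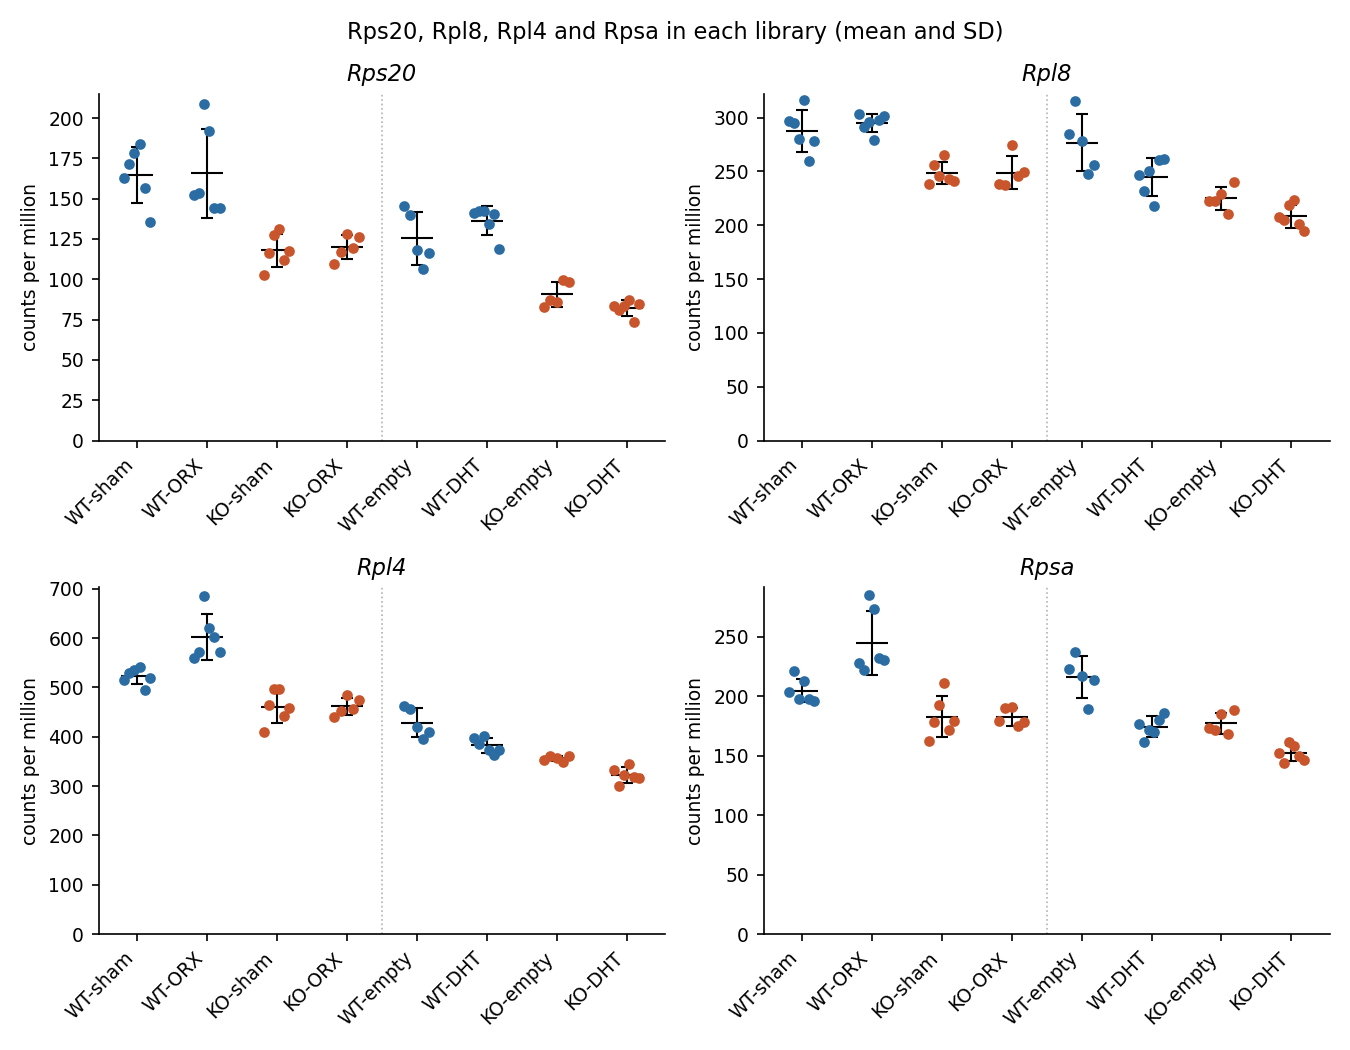
Level in CPM (y axis, from 0) of *Rps20*, *Rpl8*, *Rpl4* and *Rpsa* in each library of the 8 groups (x axis), with WT in blue and KO in orange. Each point is a library, and the black marks are the mean and the SD of a group of 5 or 6 libraries. The KO libraries of *Rps20* lie below the WT libraries in each of the 4 comparisons.

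The 3 stalk genes encode the base of the stalk, *Rplp0*, and the acidic proteins *Rplp1* and *Rplp2* that form its arms. *Rplp2* (ENSMUSG00000025508) ran from 53.8 to 78.2 (median 68.9) CPM in WT-sham and from 38.3 to 56.5 (median 48.8) in KO-sham (−0.45 ± 0.11, edgeR q = 0.0055), with some overlap, and it was lost in 8 of 23 fits without 1 library. *Rplp1* (ENSMUSG00000007892) ran from 298 to 387 (median 313) CPM in WT-ORX and was at 264, 266, 273, 253 and 275 in KO-ORX, with no overlap (−0.31 ± 0.07, edgeR q = 0.0034), and was lost without KO-ORX replicate 1 or 4 or WT-ORX replicate 3 or 4. *Rplp0* passed in none of the genotype comparisons, at −0.12, −0.16, −0.28 and −0.05. All 3 genes lay below 0 in each of the 4 comparisons.

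A single member was higher in KO. *Rps10* (ENSMUSG00000052146) ran from 0.306 to 0.573 (median 0.425) CPM in WT-DHT and from 0.779 to 1.21 (median 0.864) in KO-DHT, with no overlap (1.03 ± 0.24, edgeR q = 0.0032). These values rest on 9 to 45 counts per library, the gene overlaps an annotated antisense transcript, and in the empty-implant groups it was at 0.674, 1.19, 0.420, 1.01 and 0.640 CPM in WT and 0.813, 0.756, 0.922, 0.536 and 0.584 in KO, which overlapped. Its DHT interaction missed the threshold (1.15 ± 0.35, edgeR q = 0.074).

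The members that passed were mostly abundant ones. After ORX, 11 of the 26 members above 100 CPM were lower in KO, against 2 of the 30 between 10 and 100 CPM and 0 of the 24 under 10 CPM, by edgeR, where 10.7, 4.23 and 0.885% of all genes at these levels were lower. With empty implants the counts were 7 of 18, 1 of 37 and 0 of 25 (8.51, 3.86 and 0.958% of all genes), and with DHT 9 of 18, 2 of 37 and 0 of 25 (16.9, 9.46 and 3.46%). Abundant genes in general thus passed more often. The median standard error after ORX was 0.07 for the abundant members and 0.14 for those under 10 CPM, and the median log2 fold change was −0.24 and −0.01, against −0.002 and 0.02 for all genes at these levels. The members under 10 CPM had medians of −0.08 in sham, −0.03 with empty implants and 0.03 with DHT, where 10 of the 25 lay below 0. Small nucleolar RNAs are encoded within 29 of the 80 members, and 6 of these and 7 of the other 51 were lower after ORX. These classes were chosen after the values were seen, and no test was made between them.

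Markers of muscle and of other cell types moved with genotype too. Of the 6 skeletal muscle markers, 4 were lower in KO-ORX than in WT-ORX (*Myl1*, *Ckm*, *Tnnt3* and *Acta1*, from −0.30 to −0.50), and 1 was lower in each of the other 3 genotype comparisons. Their summed level had medians of 151577 CPM in WT-sham, 168744 in WT-ORX, 152166 in KO-sham and 153994 in KO-ORX, and of 211494 in WT-empty, 179939 in WT-DHT, 176033 in KO-empty and 160765 in KO-DHT. Of the 5 macrophage markers, 1 was lower in KO in sham and 1 after ORX, and their sum, led by *Lyz2*, was between 83.4 and 276 CPM in every library. Of the 2 measured lymphocyte markers, *Cd3e* was higher in KO in sham (1.28) and after ORX (1.33), whereas *Ptprc* lay below 0 in both. Their summed level, led by *Ptprc*, was at most 46.5 CPM in any library. The satellite cell genes *Pax7* and *Myf5* were higher in KO with DHT (1.24 and 0.89), and *Myf5* in sham (0.75). Fibroblast, endothelial, adipocyte and red cell markers had 0 calls in the 4 genotype comparisons by edgeR. The part of these cells in the results on ribosomal protein genes was not tested.

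Orchidectomy was compared with sham surgery to see how androgen loss bears on these genes in each genotype. In WT, 5 members rose and 0 fell, where 2.04% of all genes rose and 3.41% fell. By level, 3 of the 26 members above 100 CPM rose, as did 4.85% of all genes at that level. Between 10 and 100 CPM 2 of 30 rose (2.69% of all genes), and under 10 CPM 0 of 24 (1.32%). Unadjusted p-values under 0.05 were found for 27 members, or 33.8% against 22.3% of all genes. The median log2 fold change of the members was 0.10, against 0.01 for all genes, and 21 of 80 lay below 0. *Rpl29* ran from 42.2 to 51.1 (median 48.5) CPM in WT-sham and from 51.3 to 70.1 (median 56.1) in WT-ORX, with no overlap (0.31 ± 0.07, edgeR q = 0.0045). *Rpsa* (0.26 ± 0.06, edgeR q = 0.0076), *Rpl4* (0.20 ± 0.05, q = 0.0091) and *Rplp1* (0.25 ± 0.06, q = 0.01) rose as well, in each case with every WT-ORX library above every WT-sham library. Without 1 library, *Rpl29* passed in 19 of 23 fits, *Rpsa* in 15, *Rpl4* in 7 and *Rplp1* in 5, and *Rplp1* did not pass with TMM factors from genes outside the family or with thinned counts. *Rpl3*, the last of the 5, is given with its paralog. With only WT-ORX and WT-sham fitted, 0 of the 5 passed, and without WT-sham replicate 3, WT-ORX replicate 3 or WT-ORX replicate 4 the count was also 0. It was 1 without WT-sham replicate 1, 4, 5 or 6 or KO-sham replicate 5, and 3 without KO-sham replicate 2 or 6 or KO-ORX replicate 1, 2, 4 or 5. Among markers, *Myh1* fell after ORX in WT and KO (−0.61 and −0.61) and the fibroblast gene *Lum* rose in both (0.59 and 0.57). Of the 5 fibroblast markers, 4 lay below 0 in WT and 1 in KO. In WT, *Mylpf* rose (0.44), and the fibroblast marker *Pdgfra* and the macrophage marker *Csf1r* fell (−0.23 and −0.31). In KO *Tnnt3* fell (−0.20). Their part was not tested.

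In KO, ORX changed 0 members by edgeR's test, and 0 by DESeq2 and limma-voom, where 1.99% of all genes rose and 3.58% fell, and 6 members had an unadjusted p under 0.05, or 7.50% against 24.5% of all genes. The median of the members was 0.06, against 0.01 for all genes, and between 0.02 and 0.10 without 1 library. With library-size scaling 2 members passed as higher, on an all-gene median of 0.12. The genes that rose in WT stood in KO at 0.13 for *Rpl3*, −0.05 for *Rpl29*, 0.00 for *Rpsa*, 0.00 for *Rpl4* and 0.05 for *Rplp1*. For the difference between the genotypes, the ORX interaction, 0 members passed by edgeR, DESeq2 or limma-voom, where 0.0171% of all genes passed as higher and 0.00571% as lower, and 10 members had an unadjusted p under 0.05, or 12.5% against 9.61% of all genes. Its median was −0.04 against 0.00 for all genes, and between −0.09 and −0.02 without 1 library. *Rpl29* had an interaction of −0.36 ± 0.11 (edgeR q = 0.2) and *Rpsa* one of −0.26 ± 0.09 (q = 0.33). The ORX comparisons of WT and of KO share no library, and 45 of the 80 members lay above 0 in both, or 56.2% against 35.7% of all genes.

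Treatment of females with DHT was compared with empty implants to see the response to added androgen. In WT, 8 members fell and 1 rose, where 4.64% of all genes fell and 6.63% rose. By level, 3 of the 18 members above 100 CPM fell, as did 9.99% of all genes at that level. Between 10 and 100 CPM 4 of 37 fell (5.91% of all genes), and under 10 CPM 1 of 25 (3.23%). Unadjusted p-values under 0.05 were found for 35 members, or 43.8% against 29.8% of all genes. The median of the members was −0.18, against −0.01 for all genes, and 67 of 80 lay below 0. With library-size scaling 14 members fell and 0 rose. The count was 4 without WT-empty replicate 1 or 2 or WT-DHT replicate 1 or 4, 5 without WT-empty replicate 3, WT-DHT replicate 3 or KO-empty replicate 3, and 15 by DESeq2. Among markers, *Myl1*, *Tie1* and *Dcn* rose with DHT in WT (0.29, 0.45 and 0.54) and in KO (0.29, 0.40 and 0.51). *Pecam1* rose and *Pdgfra* fell in WT (0.33 and −0.44), and *Lum* fell in KO (−0.98). Their part was not tested.

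The stalk base *Rplp0* (ENSMUSG00000067274) had the smallest p-value of the members with DHT in WT. It was at 474, 556, 482, 418 and 449 CPM in WT-empty and ran from 329 to 384 (median 355) in WT-DHT, with no overlap (−0.43 ± 0.07, edgeR q = 6.4e-05). In KO it was at 382, 387, 385, 359 and 440.3 CPM without and ran from 315 to 372 (median 339.9) with DHT, which overlapped (−0.20 ± 0.07, edgeR q = 0.067). *Rpl7a* (ENSMUSG00000062647), a large-subunit protein, was at 43.4, 49.1, 40.9, 36.9 and 40.3 CPM in WT-empty and ran from 29.0 to 35.2 (median 31.0) in WT-DHT, with no overlap (−0.41 ± 0.08, edgeR q = 0.00058). In KO, *Rpl7a* missed the threshold (−0.07 ± 0.08, edgeR q = 0.63) and its groups overlapped. *Rpsa* fell without overlap in WT (−0.31 ± 0.06, edgeR q = 0.0003). In KO every KO-DHT library of *Rpsa* lay below every KO-empty library as well, and the difference missed the threshold (−0.22 ± 0.06, q = 0.013). In WT these 3 genes passed with each library left out in turn and in a fit of WT-empty and WT-DHT alone, where 3 members passed in all. *Rpl11* (ENSMUSG00000059291), which also binds Mdm2 when ribosome assembly fails, was at 11.7, 11.8, 11.7, 9.92 and 10.8 CPM in WT-empty and ran from 7.68 to 9.48 (median 9.32) in WT-DHT, with no overlap (−0.32 ± 0.08, edgeR q = 0.0067). It was lost without WT-empty replicate 1, 2, 3 or 5 or WT-DHT replicate 5 or 6 (q up to 0.021), and it did not pass with thinned counts or in a fit of the 2 groups alone. *Rps2* ran from 109.8 to 152 (median 114) CPM in WT-DHT, which overlapped its WT-empty libraries (−0.42 ± 0.11, edgeR q = 0.0086), and it was lost in 10 of 22 fits without 1 library and in a fit of the 2 groups alone. *Rpl23* (−0.28) and *Rps28* (−0.29), named after their values were seen, fell as well, and passed in 13 and 6 of 22 fits without 1 library and not in a fit of the 2 groups alone. *Rps28* did not pass by limma-voom, nor *Rpl23* with thinned counts.

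*Rps14* was the member that rose. It was at 241, 218, 201, 193 and 189 CPM in WT-empty and ran from 222 to 279 (median 258) in WT-DHT, which overlapped (0.30 ± 0.08, edgeR q = 0.0059), and it missed the threshold under library-size scaling and in 8 of 22 fits without 1 library. *Rps23* had 1.86, 1.97, 2.32, 2.02 and 2.08 CPM in WT-empty and ran from 2.48 to 3.01 (median 2.77) in WT-DHT, and every WT-DHT library was above every WT-empty library, yet its difference missed the threshold (0.43 ± 0.15, edgeR q = 0.049).

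In KO, DHT lowered 1 member and raised 0, where 1.75% of all genes fell and 2.86% rose, and 30 members had an unadjusted p under 0.05, or 37.5% against 25.2% of all genes. DESeq2 called 4 lower and 0 higher, and limma-voom 1 lower and 0 higher. The median of the members was −0.14 against −0.01 for all genes, and 65 of 80 lay below 0. The count of members was 0 without any 1 of the 5 KO-empty libraries or KO-DHT replicate 2, 3, 5 or 6. It was 2 without WT-empty replicate 2 or 4 or KO-DHT replicate 4.

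The DHT comparisons of WT and of KO share no library, and 57 of the 80 members lay below 0 in both, or 71.2% against 34.1% of all genes. The 37 members that lay above 0 after ORX in both genotypes and below 0 with DHT in both made up 46.2%, against 18.4% of all genes. The ORX and DHT experiments differ in sex, muscle, age and length of treatment, which cannot be told apart from the treatments.

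For the DHT interaction, 1 member passed as lower and 0 as higher by edgeR, and by DESeq2 and limma-voom 1 passed in all, where 1.9% of all genes were lower and 1.34% higher, and 8 members had an unadjusted p under 0.05, or 10.0% against 15.1% of all genes. The gene was *Rps23* (ENSMUSG00000049517), a protein of the decoding site. Its level, 1.86, 1.97, 2.32, 2.02 and 2.08 CPM in WT-empty and 3.17, 2.55, 2.69, 2.08 and 3.74 in KO-empty, ran from 2.48 to 3.01 (median 2.77) in WT-DHT and from 1.54 to 2.60 (median 2.36) in KO-DHT. DHT thus stood above empty in WT and, with overlap, below it in KO (−0.79 ± 0.21, edgeR q = 0.038). The counts of *Rps23* were between 69 and 163 per library, and it passed without 1 library in 8 of 22 fits and not under library-size scaling. Without WT-empty replicate 3, 2 members passed. The median of the members was 0.02 against −0.01 for all genes, and −0.02 and −0.01 without WT-empty replicates 1 and 2, where that of all genes was −0.01.

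The muscle paralog *Rpl3l* (ENSMUSG00000002500) far exceeded *Rpl3* (ENSMUSG00000060036). *Rpl3l* ran from 228 to 275 (median 251) CPM in WT-sham, from 215 to 254 (median 235) in WT-ORX and from 235 to 272 (median 262) in KO-sham, and was at 244, 242, 272, 234 and 239 in KO-ORX. *Rpl3* ran from 14.7 to 17.5 (median 15.5), from 16.8 to 22.3 (median 18.9) and from 14.6 to 17.4 (median 16.1) CPM in the same groups and was at 18.8, 19.6, 17.2, 15.5 and 16.9 in KO-ORX. In the spinalis *Rpl3l* was at 277, 192, 186, 222 and 240.1 CPM in WT-empty and 235, 301, 278, 254 and 331 in KO-empty, and *Rpl3* at 12.4, 13.4, 13.7, 12.5 and 12.1 and 16.1, 12.2, 15.2, 14.4 and 11.6. With DHT, *Rpl3l* ran from 186 to 277 (median 242) CPM in WT and from 201 to 331 (median 289) in KO, and *Rpl3* ran from 10.2 to 13.4 (median 12.0) and from 10.4 to 13.2 (median 11.3). The spread between mice of *Rpl3l* was larger in the spinalis, and neither gene passed in any comparison other than *Rpl3* in WT after ORX (0.30 ± 0.07, edgeR q = 0.0064), where its groups overlapped and it passed in 15 of 23 fits without 1 library. *Rpl3* did not pass there with thinned counts, with a replicate block or in a fit of WT-ORX and WT-sham alone.

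The ratio of the pair was taken within each library, per base of coding sequence, so that scaling cancels. It ran from 13.8 to 17.9 (median 16.0) in WT-sham, from 9.83 to 14.1 (median 11.9) in WT-ORX and from 14.0 to 18.4 (median 16.2) in KO-sham, and was 12.8, 12.2, 15.6, 14.9 and 13.9 in KO-ORX. In the spinalis it was 22.1, 14.2, 13.4, 17.5 and 19.7 in WT-empty and 14.4, 24.4, 18.2, 17.5 and 28.1 in KO-empty, and ran from 14.7 to 25.5 (median 19.8) in WT-DHT and from 17.9 to 31.7 (median 22.2) in KO-DHT. Every library thus held at least 9.83 times as many *Rpl3l* as *Rpl3* counts per coding base. WT-ORX held the lowest ratios and overlapped WT-sham, and KO-DHT held the highest and overlapped the other spinalis groups. An exact two-sided permutation test of the mean log2 ratio was made in 8 comparisons, with Benjamini-Hochberg adjustment over them and a smallest possible p of 0.00216, or 0.00794 for 5 against 5 libraries. After ORX in WT the mean log2 ratio was 3.57 against 3.97, a difference of −0.40 (exact permutation p = 0.00649, adjusted p = 0.0519), which missed 0.05. It passed without WT-ORX replicate 1 or 6, where the difference was −0.45 and −0.44. In KO it was 3.79 after ORX against 4.00, a difference of −0.21 (exact permutation p = 0.0519, adjusted p = 0.208). The other 6 differences, from 0.03 to 0.24, had adjusted exact permutation p-values from 0.283 to 0.699. Per exon base the ratio was between 19.2 and 61.8, and the differences of the log2 ratio are the same by construction.

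**Figure D3:**
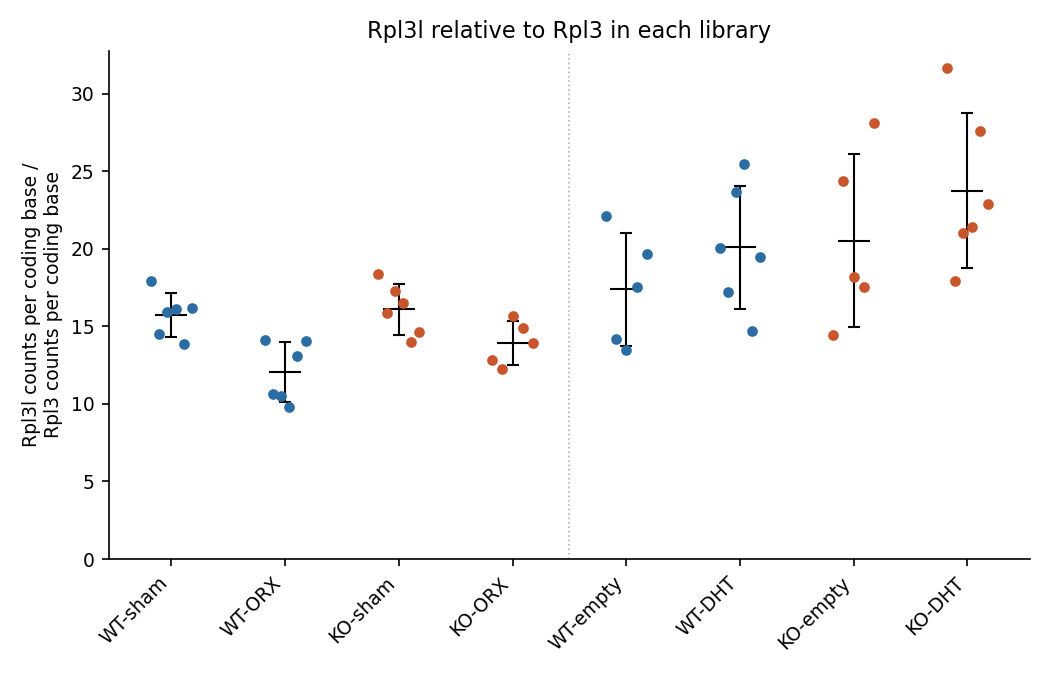
Ratio of *Rpl3l* to *Rpl3* counts per coding base (y axis, from 0) in each library of the 8 groups (x axis), with WT in blue and KO in orange. Each point is a library, and the black marks are the mean and the SD of a group. The ratio lies between 9.83 and 31.7 in the 45 libraries.

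The other paralog pairs were compared on the same scale, as means over the libraries of a muscle. *Rps27l*, which p53 induces, stood at 36.4 times *Rps27* in the gastrocnemius and 37.3 times in the spinalis. *Rps27* was counted at 1.57 CPM in WT-empty on average, and copies elsewhere in the genome may hold part of its reads. *Rpl22l1* stood at 16.8% of *Rpl22* in the gastrocnemius and 18.3% in the spinalis, *Rpl7l1* at 17.6 and 20.3% of *Rpl7*, and *Rpl36al* at 21.3 and 19.1% of *Rpl36a*. Of these 8 genes, *Rpl22* (−0.22 ± 0.05, edgeR q = 0.0079, KO against WT after ORX) and *Rpl7* passed in a comparison. *Rpl39* ran from 53.6 to 67.0 (median 62.3) CPM in WT-sham and passed in none, nor did *Rpl10*, a late-joining protein of the large subunit. *Rpl27* and *Rpl41*, which serve as reference genes in PCR, passed in none either, at log2 fold changes between −0.29 and 0.33 and between −0.26 and 0.26 over the 8 comparisons of groups.

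Across libraries most members followed one another. As a description with no test, each member's log2 CPM was correlated with the median of the other members, after removal of group means. The correlation had a median of 0.699 over the 23 gastrocnemius libraries, with 55 members over 0.5 and 4 below 0. Over the 22 spinalis libraries its median was 0.541, with 43 over 0.5 and 9 below 0. The group differences given above are thus left out, while the members of a library share its scaling. The members that followed least were *Rpl9*, *Rps10* and *Rpl7a* in the gastrocnemius and *Rpl28*, *Rps29* and *Rpl38* in the spinalis. *Rpl28*, *Rps29*, *Rpl38* and *Rps10* were among the least counted, with as few as 3 counts of *Rpl28* in a library.

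Genes of related function were read from lists. *Rack1*, a protein of the small subunit with another kind of name, was lower in KO after ORX (−0.20, edgeR q = 0.0065) and with empty implants (−0.34, q = 0.0037). Of 20 translation factors with TOP mRNAs, 3 were lower in KO in sham, 4 after ORX, 2 with empty implants and 1 with DHT, at medians of −0.09, −0.09, −0.10 and −0.07. Of all genes, 2.82, 2.73, 2.5 and 6.51% were lower in these comparisons. Among the factors were *Eef2*, which moves the ribosome along the mRNA (−0.30 in sham and −0.34 after ORX), and *Eif3f* (−0.38 and −0.32). *Eef1b2* fell with DHT in WT (−0.39) and in KO (−0.35), *Eif3k* rose after ORX in WT (0.24) and *Eef1g* fell after ORX in KO (−0.22). *Eef1a2*, the elongation factor of adult muscle, was lower in KO in sham (−0.28, edgeR q = 0.00041) and after ORX (−0.24, q = 0.0034), while *Eef1a1* passed in none. Of 7 measured host genes of small nucleolar RNAs, 1 was lower in KO in sham, 1 after ORX, 2 with empty implants and 3 with DHT, namely *Snhg6*, *Snhg8* and *Snhg5*. Such RNAs guide the modification of ribosomal RNA.

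Genes that build or regulate ribosomes passed in several comparisons. Of 30 ribosome biogenesis genes, 4 fell with DHT in WT (*Rrs1* −0.66, *Nop56* −0.33, *Dkc1* −0.47 and *Ftsj3* −0.27), where 4.64% of all genes fell and 6.63% rose. With DHT in KO 1 of them fell (*Tsr1* −0.31), where 1.75% of all genes fell. After ORX 1 was lower in KO than in WT (*Gnl3* −0.29), as were 2.73% of all genes. Of 14 genes of RNA polymerase I and Myc, 5 fell and 1 rose with DHT in WT. *Myc*, a transcription factor that drives ribosome production, fell with DHT in WT (−1.57, edgeR q = 2.6e-05) and in KO (−1.48, q = 0.00014), and *Mycn* fell in WT (−2.49, q = 5.7e-05). In the same list 1 gene rose after ORX in WT, where 2.04% of all genes rose. In KO, 2 of these genes were lower in sham, 2 after ORX, 1 with empty implants and 1 with DHT. The shares of all genes that were lower in KO there were 2.82, 2.73, 2.5 and 6.51%. *Taf1d* passed as higher in the DHT interaction (0.58, edgeR q = 0.00087), as did 1.34% of all genes.

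Of 18 genes of mTORC1 and the control of TOP mRNAs, *Sesn1*, an inhibitor of mTORC1, rose after ORX in WT (1.08) and KO (1.06) and fell with DHT in both (−1.14 and −0.72). *Larp1*, which binds TOP tracts, was lower in KO after ORX (−0.26, edgeR q = 0.0092) and with DHT (−0.38, q = 0.0023). *Akt1* was lower in KO in sham (−0.31) and with DHT (−0.46), and it passed in the DHT interaction (−0.35). *Deptor* rose after ORX in WT, *Eif4ebp2* was lower in KO in sham, *Tsc1* and *Eif4ebp1* rose with DHT in WT and were lower in KO with DHT, *Akt2* was lower there too, and *Akt1* fell with DHT in KO.

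Mitochondrial ribosomal proteins, which serve translation inside mitochondria, were set beside the cytosolic ones. Of 77 measured genes 5 were higher in KO in sham and 12 with DHT, 1 was lower after ORX and 1 with empty implants, where 2.48 and 5.13% of all genes were higher and 2.73 and 2.5% lower. The medians were 0.09, −0.03, 0.05 and 0.13 in sham, after ORX, with empty implants and with DHT. In KO, 8 of them fell after ORX, with a median of −0.15, where 3.58% of all genes fell. With DHT 1 rose in KO and 1 in WT, where 2.86 and 6.63% of all genes rose, and 1 passed as higher in the DHT interaction, as did 1.34% of all genes. Genes with transcripts of at most 1000 bases were read too, 489 in the ORX and 478 in the DHT experiment. Their medians in KO against WT were 0.06, −0.03, 0.05 and 0.09 in sham, after ORX, with empty implants and with DHT. The medians of the cytosolic members lay between −0.12 and −0.16 there. Of the short-transcript genes, 11, 1, 15 and 33 were higher and 9, 20, 9 and 15 lower in KO. The shares of all genes were 2.48, 1.07, 1.75 and 5.13% higher and 2.82, 2.73, 2.5 and 6.51% lower. With ORX the medians of the short-transcript genes were 0.06 in WT and −0.05 in KO, with 12 and 3 higher and 9 and 19 lower. Of all genes, 2.04 and 1.99% rose and 3.41 and 3.58% fell there. With DHT the medians were 0.01 and 0.06, with 23 and 19 higher and 13 and 9 lower. Of all genes, 6.63 and 2.86% rose and 4.64 and 1.75% fell with DHT. In the DHT interaction 7 short-transcript genes passed as higher and 5 as lower, where 1.34 and 1.9% of all genes did.

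Starts of the members were taken from RefSeq promoters on GRCm38.p6, which held 73 starts of 61 members among 32851 promoters. A run of at least 8 bases of C or T that covered the start, or began at most 5 bases from it, was found at 28.8% of the members' starts and 6.31% of all promoters. The start itself was C at 30.1% of the members' starts and 16.3% of all. CCGGAA, on either strand between 250 bases before and 50 after the start, occurred at 47.9% of the members' starts and 14.9% of all promoters, and AAGATGGC at 11.0 and 2.75%. Shown are 15 bases before and 15 from the start, 5′ to 3′, with the longest such run in capitals, to show what the tract looks like in members named above with long runs, and then for *Rpsa*, *Rplp0* and both starts of *Rpl3l*, where the run was short.
Rpl7a: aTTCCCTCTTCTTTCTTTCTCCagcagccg
Rps10: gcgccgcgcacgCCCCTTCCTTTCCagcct
Rpl28: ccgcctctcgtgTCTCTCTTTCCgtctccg
Rplp2: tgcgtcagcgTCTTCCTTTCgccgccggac
Rps6: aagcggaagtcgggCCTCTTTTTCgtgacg
Rps15a: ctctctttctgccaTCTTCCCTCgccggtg
Rpsa: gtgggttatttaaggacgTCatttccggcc
Rplp0: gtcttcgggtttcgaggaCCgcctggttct
Rpl3l: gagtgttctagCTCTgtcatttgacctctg
Rpl3l: gtcatcaacagctacagtgCCCCaaatgtc
A short run says only that no run of 8 or more bases lies at that annotated start.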

How the data were processed

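RNA of 45 muscle samples was analysed, of the 46 that the labels describe. Libraries were of the stranded total RNA kind. Reads were aligned with STAR 2.7.1b to GRCm39, and the submitters used SAMtools 1.9, Picard 2.20.2 and featureCounts of Subread 2.0.0, as their processing notes name them. The deposited values are counts per gene without normalization. Samples were paired with the ORX columns by group and replicate number and with the DHT columns by group, so that their replicate numbers follow column order alone. Of the genes, 17433 of 17514 (ORX) and 16920 of 16987 (DHT) were found, by Ensembl identifier, in GENCODE M21 (GRCm38), which gave symbols, lengths and overlaps and no coordinates. Of 88 symbols that met the rule, 3 (*Rpl10l*, *Rpl39l* and *Rps12l1*) were not analysed, and 3 genes annotated as pseudogenes were dropped. Requiring 0.5 CPM in 2 or more libraries removed 0 genes.

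Each experiment was fitted separately with edgeR 4.0.16 in R 4.3.3, with TMM normalization, a mean for each of the 4 groups, quasi-likelihood F tests and Benjamini-Hochberg adjustment over all genes of the table. Log2 CPM used a prior count of 2. Standard errors were the fold change divided by the root of F. The alternatives were DESeq2 1.42.0, limma-voom with limma 3.58.1, library-size scaling, TMM factors from genes outside the family, at least 10 counts in every library, a fit restricted to the pair of groups in question, other thresholds (0.05 in place of 0.01, and 0.01 in place of 0.05 for the interaction), counts thinned to the smallest library, a replicate block (ORX) and the removal of each library. The fits were tested on simulated counts, and no outcome of that test is given or relied on here. Tables and figures were made with Python 3.11.15, pandas 2.3.3, numpy 2.4.6 and matplotlib 3.10.9.

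Named genes were *Rpl3*, *Rpl3l*, *Actn3*, the paralog pairs, the stalk genes, *Rpsa*, *Rps6*, *Rpl27* and *Rpl41*, in each comparison the 4 members with the smallest p-values in each direction past the threshold, the 5 members of highest and of lowest level per coding length and the 3 that followed the others least. The members and lists were chosen with earlier results of these data known, and other genes were named after their values were seen.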

Additional observations from a re-analysis of the deposited data

Results flagged for a closer look

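*Rpl3l* had a KO-ORX library far from the other 4 of its group, KO-ORX replicate 3 at 8.09 on the log2 CPM scale (244, 242, 272, 234 and 239 CPM in the 5 libraries). The gap test was applied to 40 sets of group values, and chance picks out about 1 in 20. *Rps23* differed between WT and KO in its response to DHT, with an interaction of −0.79 on the log2 scale (edgeR q = 0.038), and without 1 library its interaction ran from −0.89 to −0.68.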

How the results depend on the processing

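Across alternatives and left-out libraries, 605 of the values that answer a comparison kept their direction and side of the threshold, 94 moved by more than their spread or 1.5 times, 2 passed that had not and 3 turned in direction, of which 2 did not turn relative to all genes. Of the fold changes of single genes (each one that passed, and all of *Rpl3* and *Rpl3l*), 1815 stayed on their side of the threshold and 369 no longer passed, in the same direction. The cause was not tested unless fewer groups, fewer counts or another threshold made the change.

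Members called under library-size scaling were 2 for ORX in KO, 7 for KO against WT after ORX, 14 for DHT in WT, 1 for KO against WT with empty implants, 2 for KO against WT with DHT and 0 for the DHT interaction. The medians under this scaling were 0.16 for ORX in KO, −0.04 for KO against WT with DHT, 0.06 for the DHT interaction and 0.019 for the ORX interaction. This scaling moved all genes alike: their medians were 0.12, 0.09, 0.03 and 0.07, and relative to them the ORX interaction of the members stayed at −0.05, as in the main fit, and did not turn in direction. Members called with the other threshold were 12 for ORX in WT, 1 for ORX in KO, 11 for KO against WT in sham, 20 for KO against WT after ORX, 22 for DHT in WT, 6 for DHT in KO, 14 for KO against WT with empty implants, 21 for KO against WT with DHT and 0 for the DHT interaction. With only the groups compared, they were 0 for ORX in WT, 3 for DHT in WT and 0 for KO against WT with empty implants. DESeq2 called 15 for DHT in WT and 4 for DHT in KO. With at least 10 counts in every library, 2 were called for DHT in KO. With counts thinned to the smallest library, 3 were called for ORX in WT and 2 for the DHT interaction.

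Without 1 library, members called ranged from 0 to 7 for ORX in WT, 1 to 8 for KO against WT in sham, 8 to 16 after ORX, 4 to 12 for DHT in WT, 0 to 2 for DHT in KO, 1 to 10 for KO against WT with empty implants, 5 to 14 with DHT and 0 to 2 for the DHT interaction. The median ranged from 0.02 to 0.10 for ORX in KO and from −0.09 to −0.02 for the ORX interaction. That of the DHT interaction ranged from −0.017 to 0.049, and turned in direction without WT-empty replicate 1 or 2, where the median of all genes was −0.01 and the members lay 0.005 below and 0.003 above it. The log2 difference of the *Rpl3l* to *Rpl3* ratio after ORX in WT ranged from −0.45 to −0.34.

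Libraries of the ORX experiment with a shared replicate number were correlated after removal of group means. Of 33 such pairs 6 had a correlation above 0.1, with a median of 0.007, against −0.009 for pairs without a shared number. Such weak correlations cannot decide whether the numbers pair mice. With a replicate block, 5 members were called for KO against WT in sham. Members with few counts limit what could be seen, at a median standard error of 0.14 after ORX for members under 10 CPM.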
